A study of Triticum aestivum with 9 samples.

Results

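The 100 most abundant transcripts of the control grain were followed in filling grains of bread wheat (Triticum aestivum cv. Chinese Spring) kept for 1 h at 20, 30 or 40 °C. The members were the transcripts with the highest mean FPKM (fragments mapped to a transcript, corrected for its length and for sequencing depth) over the 3 control plants, and they were taken from 133744 annotated transcripts of 107891 genes. Transcripts of 7 named genes were left out beforehand, as was any transcript whose mean FPKM at 40 °C was at or below 0.5 times or at or above 2 times that at 20 °C. Plants had been moved from a greenhouse to chambers at 20 °C at 12 days after flowering and had adapted for 3 days. One group stayed at 20 °C as the control and the others went to chambers preheated to 30 or 40 °C, and main stem grains of all groups were harvested after 1 h in light. Whole grains of 3 independent plants per temperature gave the 9 samples, so a smaller part of a tissue in the grain and less of a transcript per cell cannot be told apart. All plants were of a single cultivar, and no transgene is named for them.

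Members were therefore chosen on the levels at 20 °C and bounded on the ratio of 40 to 20 °C. Their values at 20 °C and their difference between 40 and 20 °C are given as a description, and the calls made in that contrast are listed without being read. The levels at 30 °C were not used in the choice. In each comparison with 20 °C, the control plants were the ones on which the members had ranked high. The transcript nearest below the last member, TraesCSU02G108500.1, had a control mean of 1758 FPKM, and the last member, TraesCS1D02G001000.1, had 1760. Of the transcripts ranked above the last member, the only ones left out were TraesCS1B02G329711.1 and TraesCS1D02G317301.1, both from the named genes. The 2-fold bound removed none of them. The members nearest the bounds were TraesCS6B02G065800.1, with a ratio of 0.533, and TraesCS7D02G032100.1, with 1.38. The first transcript past the lower bound, TraesCS2A02G417500.1, ranked 125 in the control, and the first past the upper bound, TraesCS2D02G101100.2, ranked 350.

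The filling grain of wheat is mostly starchy endosperm, a tissue that packs starch and storage proteins for the seedling. Its mRNA pool is known to be uneven, with a large part of it made by families of closely related storage protein genes that lie in clusters on the chromosomes. Bread wheat is a hexaploid, and its A, B and D subgenomes carry related copies of most genes. The files give identifiers without gene names, and 0 of the 100 member genes matched the RefSeq gene table of the later IWGSC CS RefSeq v2.1 assembly. The members are therefore described by level, length, chromosome and neighbourhood, no function is given to any of them, and the tissue was not checked against marker genes. In an identifier, the letters and digit after TraesCS give the chromosome (U where the sequence was not placed), and the number after G runs along it.

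Sequencing depth was similar between temperatures, with total expected counts from 15778561 to 19497182 fragments per plant. The third plant at 40 °C stood apart. Its TMM factor (edgeR's scaling for composition) was 0.836 when the plants at 40 and 20 °C were normalized together, and those of the other 5 plants lay between 1.01 and 1.09. Results at 40 °C that rest on it are therefore given plant by plant or with and without it.

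In the control grain the 100 members held 35.9% ± 2.23 (SD, n = 3) of all expected counts, which is the share followed below. The single plants gave 38.3, 35.6 and 33.9%. At 30 °C the share was 29.5% ± 2.34 (SD, n = 3), with 31.9, 29.2 and 27.3% in the plants. All plants at 30 °C lay below all controls. At 40 °C the share was 29.4% ± 5.11 (SD, n = 3), from plants at 26.2, 26.7 and 35.3%. The first and second of these lay below every plant at 20 and 30 °C, while the third lay within the control range. Without the third plant the mean at 40 °C was 26.4%.

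**Figure D1:**
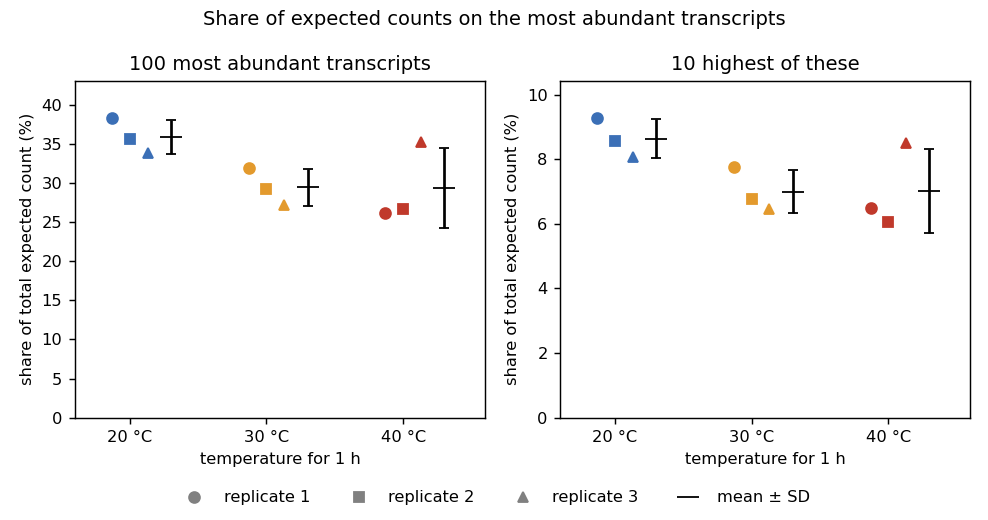
Share of the total expected count (%, linear axis from 0) on all 100 members (left) and on the 10 highest of them (right) in each plant at 20, 30 and 40 °C, where marker shapes give the replicate number and bars the mean ± SD of 3 plants. The plants at 30 °C lie between 27.3 and 31.9% for all members, below the controls at 33.9 to 38.3%, and the third plant at 40 °C lies at 35.3%.

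The difference was also present in control plants that had no part in the choice. When the rule was applied to the first control plant alone, 93 of the 100 transcripts chosen were members, and they held 35.9 and 34.0% of counts in the other control plants against a mean of 29.5% at 30 °C. For the second control plant alone, 96 were members, with 37.8 and 33.7% in the other controls and a mean of 29.6% at 30 °C. When it was applied to the third control plant alone, 98 were members, with 38.4 and 35.8% in the other controls and a mean of 29.8% at 30 °C. At each heated temperature 93 of the members were still among the 100 highest by mean FPKM, and the lowest member ranked 118 at 30 °C and 125 at 40 °C.

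The highest member was TraesCSU02G260700.1, a transcript of 378 bases on unplaced sequence. Its FPKM was 24611, 23899 and 24384 in the controls, 20505, 22754 and 23047 at 30 °C, and 18797, 19465 and 18677 at 40 °C. It ranked first at every temperature, and the 3 groups of plants did not overlap. The second member, TraesCSU02G249800.1 (866 bases), stood at 15010 FPKM ± 1592 (SD, n = 3) in the controls, 13214 ± 714 at 30 °C and 11472 ± 531 at 40 °C. The sixth, TraesCSU02G263900.1, had 13211 ± 967, 11659 ± 732 and 10344 ± 250. Shares of total counts did not overlap between the temperatures for these 3 transcripts either. The third plant at 40 °C was the highest of its group for TraesCSU02G249800.1 and TraesCSU02G263900.1, at 12084 and 10633 FPKM, yet below every plant at 30 °C.

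Other members of the top 10 behaved differently in that plant. TraesCS1D02G001200.1 had 15547, 14915 and 13879 FPKM in the controls, 14383, 11614 and 10674 at 30 °C, and 11787, 11186 and 16476 at 40 °C. The third plant at 40 °C was thus above every control. In TraesCS1B02G010800.1 the controls had 15752, 13407 and 12348 FPKM, the plants at 30 °C 12560, 9974 and 6389, and those at 40 °C 10185, 8886 and 14842. TraesCS6B02G066000.1, TraesCS6B02G065856.1, TraesCS1A02G007400.1 and TraesCS1D02G000300.1 also had their highest value at 40 °C in the third plant. TraesCSU02G257591.1, of 310 bases, alone in the top 10 did not have a lower mean FPKM at 30 and 40 °C than in the controls. It had 11884 ± 837 FPKM (SD, n = 3) in the controls, 12194 ± 1916 at 30 °C and 11910 ± 658 at 40 °C, with all groups overlapping.

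FPKM corrects for length and the share does not, so the largest share belonged to a long transcript. TraesCS1A02G000900.1, of 2987 bases, ranked 24 by FPKM and held 2.18% of the control counts. The smallest share of a member was 0.0209%. In all, 24 members held 0.5% or more each. Member length ran from 213 to 3718 bases with a median of 861, against 1560 for all transcripts with a mean FPKM above 1. The 7 members over 2000 bases together held 6.36% of control counts.

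The members were not spread evenly over the genome. Of the 100, 36 were on chromosomes of group 1, which held 12.9% of all expressed transcripts, and 26 were on unplaced sequence, which held 1.43%. None was on group 2, which held 16.2%. Subgenomes A, B and D had 24, 24 and 26 members. Of the 74 on placed chromosomes, 57 fell into 14 runs of neighbouring identifiers, a run being members of 1 chromosome whose numbers were no more than 2000 apart. The longest runs were on 1B (10 members from TraesCS1B02G010400 to TraesCS1B02G013500), 1D (8, from TraesCS1D02G000200 to TraesCS1D02G001400) and 6A (6, from TraesCS6A02G048900 to TraesCS6A02G049800). Chromosome 1A had a first run of 6 (TraesCS1A02G000100 to TraesCS1A02G001500) and a second of 5 (TraesCS1A02G007300 to TraesCS1A02G008000).

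Similar copies share fragments, which RSEM divides among them. Only 4 of the 100 members (TraesCS6D02G000200.1, TraesCS5D02G004300.1, TraesCS5D02G004100.1 and TraesCS7D02G083700.1) had whole expected counts in all 9 plants, against 9.32% of expressed transcripts. The counts were deposited to 2 decimals, and whole means that both were 0. A transcript with many fragments is less likely to have a whole count, so the 4 and the 9.32% do not compare the sharing of fragments. Where counts were not whole, the values of single members in a run are estimates and can depend on each other. TraesCSU02G265300.1, TraesCSU02G265500.1 and TraesCSU02G267800.1 had identical counts in every plant. For 99 members the transcript was the only one annotated for its gene.

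Between 20 and 30 °C, 54 of the 100 members had a lower share in every plant at 30 °C than in every control, 6 had a higher share in every plant, and 40 overlapped. Over all 45956 transcripts tested the percentages were 14.4 lower and 16.3 higher. The mean share was lower at 30 °C for 81 members, and the median ratio of the mean shares was 0.826. In the 900 next most abundant transcripts that median was 1.07. Few members passed a test transcript by transcript, and since high control levels had chosen the members, the counts are a description. In edgeR's quasi-likelihood test 1 member was a DET (differentially expressed transcript, changed by over 2-fold at an FDR, adjusted after Benjamini and Hochberg, under 0.05). Of all transcripts tested, 3.88% were DETs. The same member was the only one with an FDR under 0.05 at any fold change, where the background was 6.35%. At an unadjusted p under 0.05 there were 35 members lower (background 11.6%) and 6 higher (background 13.1%). The median log2 fold change was -0.30 over members and 0.00 over all transcripts tested. The count depended on the tool. DESeq2 gave 34 members with an FDR under 0.05 (background 10.5%), of which 30 were lower (background 4.30%), and 2 DETs (background 5.36%).

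**Figure D2:**
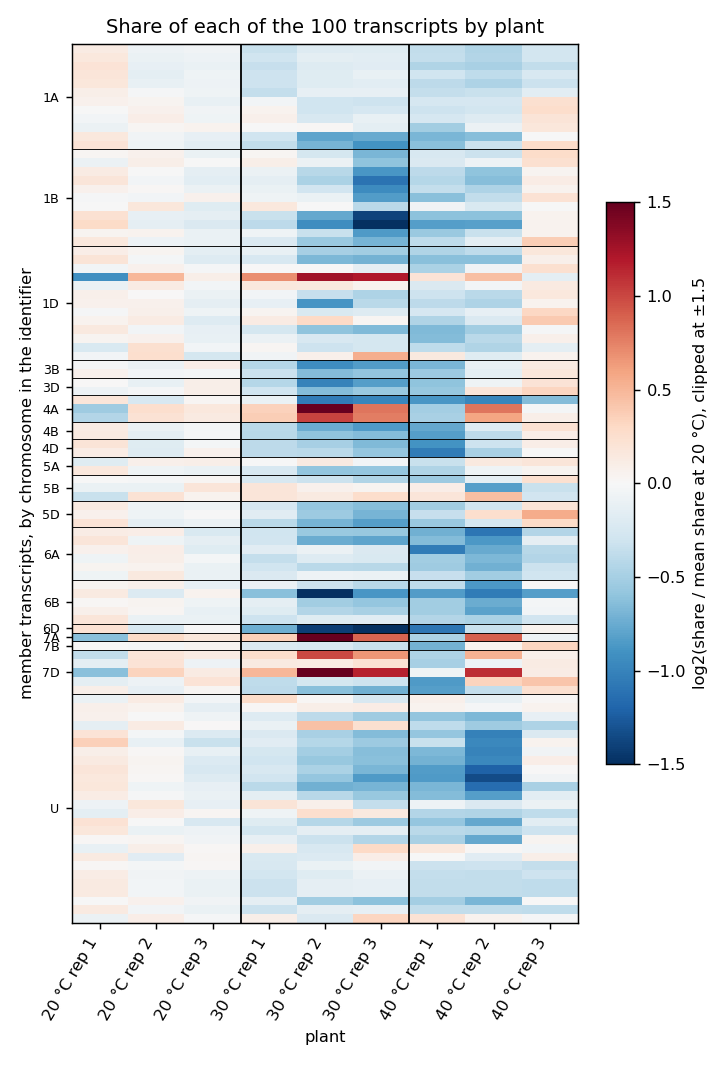
Share of each of the 100 members (rows, ordered by the chromosome in the identifier and then by its number) in the 9 plants (columns), as log2 of the share over the mean share at 20 °C, with blue below and red above and colours clipped at ±1.5. Blue prevails in the plants at 30 °C and in replicates 1 and 2 at 40 °C (median ratio to the control 0.752). Replicate 3 at 40 °C has a median ratio of 1.03, with 27 members below every control. A few rows on 1D, 4A, 7A and 7D are red at 30 °C.

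The DET was TraesCS6D02G000200.1, of 456 bases. Its FPKM was 7201, 5227 and 6089 in the controls, 3698, 2325 and 2150 at 30 °C, and 2836, 4858 and 6362 at 40 °C. All plants at 30 °C lay below all controls, and the plants at 40 °C spread over both ranges. It fell by 1.19 on the log2 scale at 30 °C (approximate standard error 0.26, edgeR FDR 0.041). Leaving out the first plant at 30 °C gave an edgeR FDR of 0.0083, and leaving out any of the other 5 plants gave 0.070 to 0.146, above the threshold.

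The next lowest ratios of mean share between 30 and 20 °C did not pass the test. TraesCS6B02G065800.1 had 2630, 2065 and 2465 FPKM in the controls and 1542, 811 and 1299 at 30 °C (log2 fold change -0.99, edgeR FDR 0.064). Its plants at 40 °C, at 1328, 1151 and 1337, were all below the controls, the third among them. TraesCS3D02G095700.1 had 6877, 6349 and 7202 FPKM in the controls and 5034, 3417 and 3756 at 30 °C (log2 fold change -0.75, edgeR FDR 0.058). At 40 °C it had 4390, 6494 and 7745, and so overlapped with the controls. TraesCS1B02G011700.1 and TraesCS1B02G011600.1, neighbours on 1B, had log2 fold changes of -0.91 and -0.79 with edgeR FDRs of 0.143 and 0.151.

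In 1 plant the 1B run was low beside the 1D run and the second 1A run. The summed share of the 1B run was 6.46, 5.79 and 5.44% in the controls, 5.35, 4.31 and 2.90% at 30 °C, and 4.27, 4.20 and 6.39% at 40 °C. All 10 of its members had their lowest share of the 9 plants in the third plant at 30 °C, which was so for 3 of the 8 members of the 1D run and 1 of the 5 of the second 1A run. It was also so for every member of the 5D run. The share of the 1B run over that of the 1D run was 0.866 in this plant and between 1.25 and 1.53 in the others. TraesCS1B02G011700.1, for example, had 6909, 4762 and 3010 FPKM at 30 °C. Without that plant the ratio of the 1B run's share between 30 and 20 °C was 0.819, and with it 0.710. The 1D run had 4.22, 4.26 and 3.82% in the controls, 4.04, 3.46 and 3.35% at 30 °C and 3.19, 3.32 and 4.54% at 40 °C, so both heated groups overlapped with the controls.

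The first 1A run and the 6A run were lower in every heated plant, the third at 40 °C included. The first 1A run held 6.09, 4.96 and 5.08% in the controls, 4.29, 4.74 and 4.83% at 30 °C and 4.10, 3.94 and 4.34% at 40 °C. For each of its 6 members the ratio of mean shares was between 0.848 and 0.871 at 30 °C and between 0.740 and 0.824 at 40 °C, so that they kept close to a common ratio. The 6A run held 1.44% ± 0.102 (SD, n = 3) in the controls, with 1.32% as the lowest, against 1.19, 1.10 and 1.08% at 30 °C and 0.953, 0.848 and 1.17% at 40 °C. The 6B run (4 members, TraesCS6B02G065600 to TraesCS6B02G066000) went from 2.44% ± 0.121 (SD, n = 3) to 1.84% ± 0.263 at 30 °C, without overlap. At 40 °C it had 1.69, 1.39 and 2.31%, the third plant being within the control range.

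The 5D run of 3 members (TraesCS5D02G004000 to TraesCS5D02G004300) had 0.489% ± 0.042 (SD, n = 3) in the controls and 0.343% ± 0.056 at 30 °C, with each member lower in every plant at 30 °C. At 40 °C its plants were at 0.350, 0.449 and 0.611%, which spans the controls. TraesCS5D02G004100.1, whose counts were whole in all plants, had 5319, 4866 and 5024 FPKM at 20 °C, 4492, 3494 and 3074 at 30 °C and 3892, 5989 and 7395 at 40 °C. Both members were lower in every plant at 30 °C in each of the pairs on 3B (TraesCS3B02G111100.1, TraesCS3B02G111200.1), 3D, 4B (TraesCS4B02G328000.1, TraesCS4B02G328100.1) and 4D (TraesCS4D02G325000.1, TraesCS4D02G325100.1). None of these members was lower in every plant at 40 °C, against 25.8% of all transcripts. In the pairs on 3B, 4B and 4D both members were below every control in the first and second plants at 40 °C. Only the third plant was not. In the 3D pair the second plant was not below every control either.

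The 26 members on unplaced sequence held 7.68, 7.02 and 6.63% of counts in the controls, 6.19, 5.88 and 5.83% at 30 °C and 5.27, 4.74 and 6.21% at 40 °C. The plants of both heated groups lay below all controls. Of these members 15 were lower in every plant at 30 °C and 12 in every plant at 40 °C, and 0 were higher in every plant at either. All transcripts gave 14.4% lower and 16.3% higher at 30 °C, and 25.8% lower and 14.4% higher at 40 °C. TraesCSU02G265300.1, of 297 bases, one of the members with identical counts, had 5104, 4521 and 4262 FPKM in the controls, 3686, 4242 and 4045 at 30 °C and 3383, 3519 and 3452 at 40 °C.

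The 17 members on placed chromosomes outside the runs held 3.53% ± 0.107 (SD, n = 3) of counts in the controls and 2.93% ± 0.198 at 30 °C, without overlap. At 40 °C they held 2.48, 2.87 and 3.55%, and the third plant lay within the control range. In every plant at 30 °C 9 of them were lower and 1 was higher, and at 40 °C 2 were lower and 0 higher. Against the same shares of all transcripts, the 2 of 17 at 40 °C were below the 25.8%. The second 1A run held 2.66% ± 0.115 in the controls, 2.26% ± 0.284 at 30 °C and 2.39% ± 0.529 at 40 °C (2.09% without the third plant), and both heated groups overlapped with the controls.

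**Figure D3:**
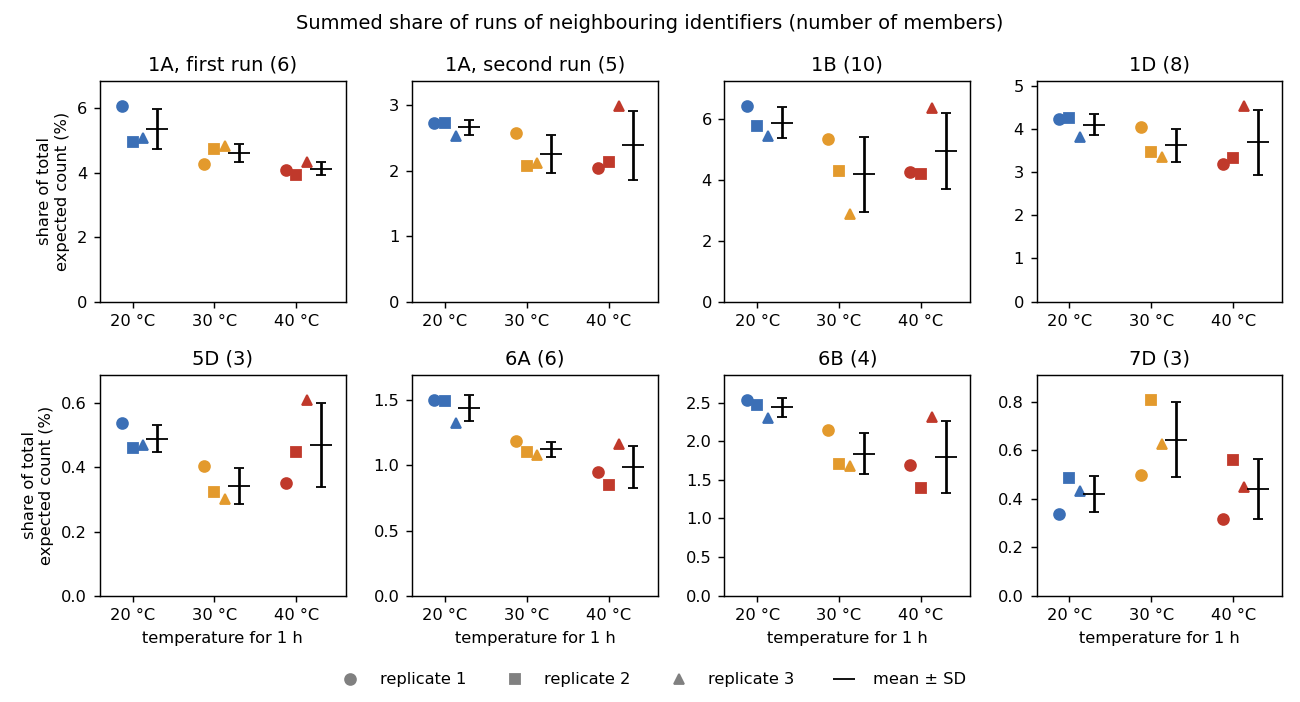
Summed share of the total expected count (%, linear axes from 0) of the 8 runs with 3 or more members in each plant at 20, 30 and 40 °C, where marker shapes give the replicate number and bars the mean ± SD of 3 plants. The first 1A run and the 6A run lie below the controls in every heated plant, the 1B run drops to 2.90% in the third plant at 30 °C, and the 7D run is highest at 30 °C.

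The 6 members with a higher share in every plant at 30 °C were TraesCS7D02G031700.1 and TraesCS7D02G032100.1 on 7D, TraesCS7A02G035500.1 on 7A, TraesCS4A02G453405.1 and TraesCS4A02G453800.1 on 4A, and TraesCS1D02G001000.1 on 1D. The end of the long arm of wheat chromosome 4A is known to carry a segment that came from 7B. TraesCS7D02G032100.1 had 1169, 2290 and 1959 FPKM in the controls, 2537, 7716 and 3942 at 30 °C, and 1691, 3860 and 1932 at 40 °C. The second plant was highest at 30 and at 40 °C, and the plants at 40 °C overlapped with the controls. Against 20 °C the log2 fold change was 1.37 at 30 °C (approximate standard error 0.41), with an edgeR FDR of 0.091. TraesCS7A02G035500.1 had 1173, 2203 and 2022 FPKM in the controls and 2294, 6173 and 3244 at 30 °C (log2 fold change 1.10, edgeR FDR 0.124). TraesCS4A02G453405.1 had 1426, 2462 and 2285 in the controls and 2620, 6201 and 3544 at 30 °C (log2 fold change 0.98, edgeR FDR 0.119). The first control plant was the lowest and the second plant at 30 °C the highest in each of these, and the gap between the highest control and the lowest plant at 30 °C was small.

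The pair on 4A, TraesCS7A02G035500.1 and the 3 members of the 7D run together held 0.667% ± 0.138 (SD, n = 3) of counts in the controls. They held 1.12% ± 0.328 at 30 °C and 0.722% ± 0.241 at 40 °C (0.733% without the third plant). All of them but TraesCS7D02G031800.1 were among the members higher in every plant at 30 °C. The higher sum at 30 °C therefore adds nothing to their single values. TraesCS1D02G001000.1 had 929, 2489 and 1862 FPKM in the controls, 2852, 4205 and 4016 at 30 °C and 2014, 2397 and 1585 at 40 °C. Of the other 7 members of the 1D run, 1 had a lower share in every plant at 30 °C and the rest overlapped with the controls. The log2 fold change of TraesCS1D02G001000.1 between 20 and 30 °C was 1.05, with an edgeR FDR of 0.104 and a DESeq2 adjusted p of 0.0058. These members did not pass the edgeR test, and over the alternatives tried their edgeR or DESeq2 FDRs ran from 0.018 to 0.224 for TraesCS7D02G032100.1 and from 0.0058 to 0.258 for TraesCS1D02G001000.1.

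**Figure D4:**
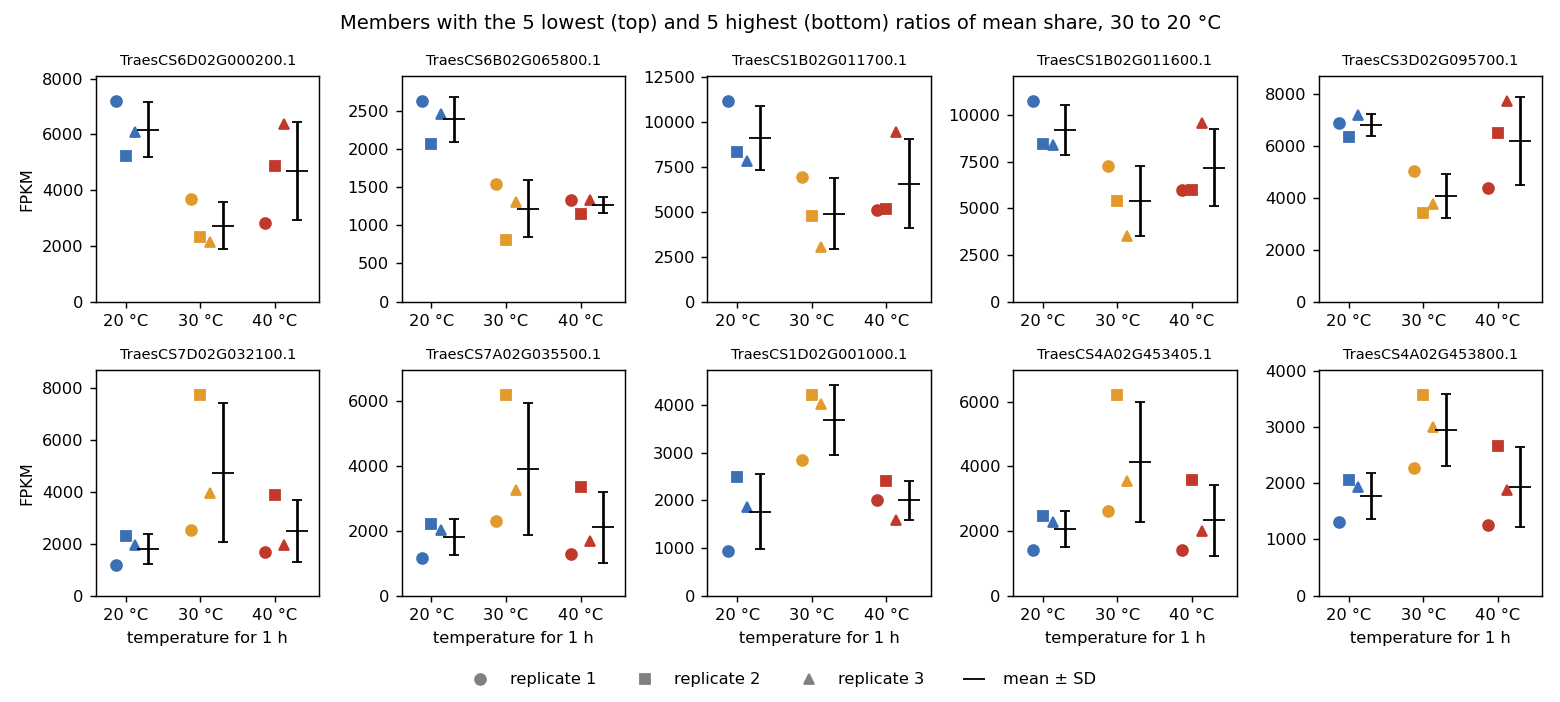
FPKM (linear axes from 0) in each plant at 20, 30 and 40 °C for the members with the 5 lowest (top) and 5 highest (bottom) ratios of mean share between 30 and 20 °C, where marker shapes give the replicate number and bars the mean ± SD of 3 plants. In the bottom row the second plant at 30 °C is highest for each member, and in the top row the plants at 30 °C lie below all controls, for TraesCS6D02G000200.1 at 2150 to 3698 against 5227 to 7201.

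Between 40 and 20 °C the mean share was lower for 85 members, with a median ratio of 0.818. In every plant at 40 °C, 26 members were lower than in every control and 0 were higher, where all transcripts gave 25.8% and 14.4%. The rule had bounded this contrast, so the counts are a description. The third plant set them to a large extent. In 82 members it had the highest share of the plants at 40 °C. The median ratio to the control mean was 1.03 in the third plant and 0.752 in the first and second together. Without the third plant the mean share was lower for 90 members, and 74 were lower in both plants than in every control, where all transcripts counted in this way gave 28.7%. In this count 0 members were higher, against 24.9% of all transcripts. A DET needs a change over 2-fold. Each member lay within that bound by mean FPKM, and the background has no such bound. Without the bound the rule chose the same 100 transcripts. By edgeR 0 members were DETs (background 12.1%), 1 had an FDR under 0.05 (background 18.6%) and 2 had an unadjusted p under 0.05 (background 33.8%), and DESeq2 gave 0 DETs. Without the third plant 1 member was a DET (background 12.5%) and 17 had an FDR under 0.05 (background 18.4%).

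The lowest ratios of mean share between 40 and 20 °C were 0.535 for TraesCS6B02G065800.1, 0.562 for TraesCS4A02G296100.1, 0.596 for TraesCSU02G153800.1, 0.604 for TraesCS6A02G048900.1 and 0.608 for TraesCS6A02G049200.1. Each of these was lower in all 3 heated plants than in every control. TraesCS4A02G296100.1 had 2282, 1700 and 2056 FPKM in the controls and 1095, 1018 and 1276 at 40 °C. The highest ratio was 1.39, for TraesCS7D02G032100.1, followed by TraesCS7A02G035500.1 (1.18), TraesCS5D02G004100.1 (1.15), TraesCS1D02G001000.1 (1.14) and TraesCS4A02G453405.1 (1.14). The plants of both temperatures overlapped in each of them.

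How many members were below 0 at 40 °C depended on the scaling and on single plants. With TMM factors 62 of 100 had a negative log2 fold change against 20 °C (median -0.12, and 0.00 over all transcripts), and with library size alone 85 had (median -0.30, and -0.14 over all transcripts). Shares are values of the second kind. Without the third plant at 40 °C the TMM count was 87 (median -0.36), and without the first plant at 40 °C it was 48 (median 0.01). At 30 °C both scalings gave 81.

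The step from 30 to 40 °C was not resolved for single members. In every plant at 40 °C, 15 members had a lower share than in every plant at 30 °C and 0 a higher one, against 18.1% and 10.0% of all transcripts. Without the third plant at 40 °C 33 were lower and 0 higher, against 21.0% and 16.4% of all transcripts. The 15 included TraesCSU02G260700.1, TraesCSU02G249800.1, TraesCSU02G263900.1 and the 3 transcripts with identical counts. By edgeR 0 members were DETs (background 3.56%) and 0 had an FDR under 0.05 (background 5.14%). At an unadjusted p under 0.05 there were 5 members higher (background 11.6%) and 3 lower (background 8.45%), and DESeq2 gave 0 DETs and 4 members with an FDR under 0.05 (background 7.70%). With TMM factors 28 members had a negative log2 fold change (median 0.12, and -0.03 over all transcripts), and with library size alone 56 had (median -0.03, and -0.16 over all transcripts). The direction turned without the third plant at 40 °C. With TMM factors 65 members were then negative (median -0.11, and -0.01 over all transcripts), and at an unadjusted p under 0.05 there were 0 members higher and 6 lower.

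The median coefficient of variation of a member's share over 3 plants was 9.19% at 20 °C, 13.5% at 30 °C and 23.8% at 40 °C. Over the first and second plants at 40 °C it was 10.4%, so much of the spread at 40 °C came with the third plant. A value without a plant is not directly comparable with those over 3 plants. For the 900 next most abundant transcripts it was 14.1, 15.2 and 18.2%, and 7.73% at 40 °C without the third plant.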

How the data were processed

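Paired-end RNA-seq reads of 9 grain samples were trimmed with Trimmomatic, aligned to the IWGSC v1.0 wheat genome and quantified with RSEM by the authors, whose own tests used edgeR 3.24.3. The extraction text in the labels names another tissue, whereas all other labels give wheat grains. The deposited expected counts are RSEM's estimates of fragments per transcript, not normalized. The deposited FPKM and TPM values are corrected for length, and the deposited isoform percent gives each transcript's part of its gene. Steps before the counts can favour 1 copy of a family over another, since RSEM divides shared fragments by estimation. The RefSeq table was used only for the match of identifiers.

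Shares are expected counts in percent of the sample total. Expected counts were rounded, and a transcript entered a comparison if its mean FPKM exceeded 1 at 1 or both of the temperatures compared. The quasi-likelihood test of edgeR 4.0.16 under R 4.3.3, with TMM factors, was run on the 6 samples of a comparison without a replicate block. The code was tested on simulated data. FDRs cover all transcripts tested. The approximate standard error is the log2 fold change over the square root of the F statistic. It takes in the spread between plants as well as counting error. At the smallest total, 3 counts equal a CPM of 0.19. Members and lists were chosen with earlier results of these data known. Transcripts named were the 10 highest in the control, the 5 with the highest and lowest ratios of mean share at 30 and at 40 °C to 20 °C, those at the edges of the rule and the runs of 3 or more. A run is given by its first and last identifier. Other members named (whole or identical counts, pairs, the largest share) were chosen after their values were seen. Alternatives were DESeq2 1.42.0, library size, no filter, 1 fit over 9 samples, the replicate block, gene sums, other choices of members and leaving out each replicate.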

Additional observations from a re-analysis of the deposited data

How the results depend on the processing

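In all 20 alternatives for the share of counts on the members, the means at 30 and 40 °C were below that at 20 °C. The ratio to 20 °C lay between 0.745 and 0.854 for 30 °C and between 0.739 and 0.862 for 40 °C. Several of the 20 could hardly differ from the main result. Without the 2-fold bound the set was the same. Leaving out a plant at 30 °C left the means at 20 and 40 °C unchanged. The value per 100 counts of all other transcripts re-expresses the same share. The 20 are therefore not independent checks. The level itself moved by construction with 50 transcripts (25.1, 19.7 and 20.5% at 20, 30 and 40 °C), with 200 (42.8, 36.5 and 35.6%), as a share of TPM (51.1, 43.7 and 43.4%) and per 100 counts of all other transcripts (56.2, 41.9 and 42.1). Members called between 30 and 20 °C, 1 in the report by either criterion, depended on the setting. DETs were 2 with DESeq2 (background 5.36%) and 0 without the FPKM filter (background 1277 of 96342 transcripts). They were 0 in 1 fit over all samples (background 1820 of 45956) and 3 with counts summed over genes (background 2452 of 43314 genes). Members with an FDR under 0.05 were 3 with library size (background 2695 of 45956) and 34 with DESeq2 (background 10.5%). They were 0 without the filter (background 1703 of 96342) and 13 with gene sums (background 5558 of 43314). With gene sums the members were thus near the background. Leaving out 1 plant gave 0 to 6 DETs and 0 to 29 with an FDR under 0.05. The 6 and 29 came without 30 °C replicate 1, where the backgrounds were 2744 and 4874 of 45956. The 6 DETs were near that background. Leaving out any other plant gave 0, with backgrounds of 906 to 1333 DETs and 1031 to 1624 with an FDR under 0.05. Between 40 and 20 °C, 7 members had an FDR under 0.05 with library size and 3 with DESeq2 (backgrounds 8904 and 9239 of 46250). There were 0 without the filter (background 6144 of 96731). In 1 fit over all samples and with the replicate block there were also 0 (backgrounds 9697 and 5753 of 46250). Leaving out 1 plant gave 0 to 1 DETs and 0 to 17 with an FDR under 0.05. The 1 and 17 came without 40 °C replicate 3 (backgrounds 12.5% and 18.4%). Between 40 and 30 °C, 4 members had an FDR under 0.05 with DESeq2 (background 7.70%) and 1 with gene sums (background 3356 of 42056). When a plant was left out there were 0 to 1 (background 1223 to 1970 of 44638). The cause of these differences was not tested. The counts of members not overlapping and the coefficient of variation without the third plant at 40 °C were chosen after seeing the data. None of the alternatives changed the sign of the log2 fold change at 30 °C of the 10 members with the highest and lowest ratios. Those 10 were picked on that ratio, and their shares did not overlap between 20 and 30 °C. Leaving out 1 plant could therefore hardly change the sign, and the result does not measure stability. The labels link same-numbered plants by a number only. Over all expressed transcripts their deviations correlated at 0.130, 0.051 and 0.021 between 20 and 30 °C. These values cannot decide whether plants were paired. The replicate block gave 5 DETs and 30 members with an FDR under 0.05 between 30 and 20 °C (backgrounds 1946 and 3458 of 45956). Between 40 and 30 °C it gave 0 of each (backgrounds 1061 and 1184 of 44638).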

Other observations

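The counts outside the members were divided by control FPKM. The 900 transcripts directly below the members by control FPKM held 18.4% ± 0.797 (SD, n = 3) of counts in the controls, 19.7% ± 0.649 at 30 °C and 17.7% ± 0.525 at 40 °C. The 9000 transcripts below those held 23.6% ± 1.10 in the controls, 28.3% ± 1.20 at 30 °C and 29.8% ± 2.80 at 40 °C (31.4% without the third plant). Their share in the single plants was 22.4, 23.7 and 24.6% at 20 °C, 27.0, 28.4 and 29.4% at 30 °C, and 31.8, 31.1 and 26.6% at 40 °C. All heated plants lay above all controls, and the third plant at 40 °C was the nearest to them. The remaining 123737 transcripts held 20.0, 20.1 and 20.9% in the controls, 20.6, 21.4 and 21.9% at 30 °C, and 22.9, 23.2 and 19.6% at 40 °C. Between 40 and 20 °C the plants overlapped for the 900 and for the remaining transcripts.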
